A study of Mus musculus with 6 samples.

Results

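The genes described here are 10 genes of the choroid plexus, *Ttr*, *Enpp2*, *Kl*, *Folr1*, *Prlr*, *Aqp1*, *Slc4a5*, *Kcne2*, *Clic6* and *Otx2*, as they were read in RNA sequencing of the mouse hippocampus. They were taken by name from a fixed list, which was chosen with earlier results of these data known. All 10 were found among the 25239 gene symbols of the count tables. Each library came from the hippocampus of 1 male C57BL/6 mouse, 6 to 8 weeks old, with 3 animals of each genotype, WT (Ube3a m+/p+) or Ube3a m-/p+. Ube3a m-/p+ mice carry an inactive maternal copy and an intact paternal copy of *Ube3a*, which encodes an E3 ubiquitin ligase, and serve as a model of Angelman syndrome. In neurons the paternal copy is normally silenced. The inactive allele is present from conception in every cell, so the model is not restricted to a cell type or a time.

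The choroid plexus is a vascular fold covered by a single-layered epithelium that hangs into the brain ventricles and secretes the cerebrospinal fluid. Its epithelium releases transport proteins, pumps ions and water from blood to ventricle, and carries folate and hormones across. It lies against the hippocampus along the ventricle and is not a part of the hippocampus itself. The labels name the tissue as hippocampus and do not say whether the plexus was taken off. Because the libraries are from bulk tissue, fewer choroid plexus cells and less RNA per cell cannot be told apart.

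The genes lie on 7 chromosomes, and the closest pair is *Kcne2* and *Clic6*, which are 187.6 kb apart on chromosome 16. On GRCm38, in the GENCODE M21 annotation, *Kcne2* spans chr16:92292389-92298129 on the plus strand, *Clic6* chr16:92485736-92541243 on the plus strand, *Enpp2* chr15:54838901-54952892 on the minus strand, *Prlr* chr15:10177238-10349180 on the plus strand and *Kl* chr5:150952607-150993817 on the plus strand. *Aqp1* spans chr6:55336432-55348555 and *Slc4a5* chr6:83219828-83304945, both on the plus strand, and *Folr1* chr7:101858331-101870788 and *Otx2* chr14:48657677-48673819, both on the minus strand. Each member is annotated as protein coding, and the counts were assigned to whole genes.

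Since the members moved together across libraries, as described below for each gene, the bases just before their start sites are shown for *Kcne2* and *Aqp1*, which varied more than 20-fold between libraries, and for *Kl*, which varied least. The 250 bases before each start are from RefSeq on GRCm38.p6, 5' to 3' on the strand of the gene, and lie outside annotated exons.
Kcne2, chr16:92292139-92292388, plus strand: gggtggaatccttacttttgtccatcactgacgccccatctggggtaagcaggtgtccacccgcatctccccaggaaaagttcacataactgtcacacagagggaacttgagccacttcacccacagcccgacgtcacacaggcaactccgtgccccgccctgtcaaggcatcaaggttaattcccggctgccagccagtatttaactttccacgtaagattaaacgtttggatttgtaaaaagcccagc
Aqp1, chr6:55336049-55336298, plus strand: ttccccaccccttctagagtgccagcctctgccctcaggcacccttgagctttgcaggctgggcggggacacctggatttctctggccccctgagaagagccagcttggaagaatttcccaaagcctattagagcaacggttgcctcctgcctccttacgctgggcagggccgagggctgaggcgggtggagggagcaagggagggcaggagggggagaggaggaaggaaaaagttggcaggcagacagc
Kl, chr5:150952357-150952606, plus strand: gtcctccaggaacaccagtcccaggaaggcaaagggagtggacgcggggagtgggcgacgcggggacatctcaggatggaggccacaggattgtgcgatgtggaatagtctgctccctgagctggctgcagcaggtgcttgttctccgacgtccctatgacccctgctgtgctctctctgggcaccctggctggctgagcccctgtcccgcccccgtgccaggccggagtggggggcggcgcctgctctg
The homeodomain protein OTX2 binds the core TAATCC, and this motif was searched on both strands, as TAATCC or GGATTA. Of the 10 genes, 6 were matched in the promoter table (*Kl*, *Aqp1*, *Slc4a5*, *Otx2*, *Prlr* and *Kcne2*), with 12 start sites in all. The motif was in 1 of these 12 windows (8.33%), compared with 2054 of the 32851 windows of all genes (6.25%). The match was in front of a start site of *Otx2* itself and overlaps an annotated *Otx2* exon of another transcript. It is shown with 12 bases on either side and the motif in capitals.
Otx2, chr14:48665303-48665332, minus strand: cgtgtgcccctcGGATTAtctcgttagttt
The 3 longer windows above do not hold these letters, which says nothing of binding elsewhere.

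Total gene counts were 7293272 to 8675252 in the WT libraries and 8871052 to 11314409 in the Ube3a m-/p+ libraries, and 39.0% to 41.8% of the reads listed fell on genes. Every pair of libraries differed by more than sampling noise (chi-square divided by its degrees of freedom, at least 3.92). Levels are given in CPM, the counts of a gene scaled by the total gene counts of its library. *Ube3a*, the targeted gene, had 104, 141 and 151 CPM in WT mice 1, 2 and 3, and 96.8, 82.9 and 80.6 CPM in Ube3a m-/p+ mice 1, 2 and 3. The genotypes did not overlap, and *Ube3a* fell by 0.58 on the log2 scale (SE 0.12, adjusted p = 0.0363, edgeR). Its call was made in 9 of 16 alternatives and was lost without WT mouse 2, WT mouse 3, Ube3a m-/p+ mouse 2 or Ube3a m-/p+ mouse 3 (adjusted p 0.142 to 0.251, edgeR). With a correction for GC content and length, its log2 fold change was -0.20 (adjusted p = 0.240, edgeR). Exons of *Ube3a* overlap those of *Snhg14* on the opposite strand, and the strand setting of the counting is not given in the sources used here.

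The secreted proteins had the highest levels. *Ttr* encodes transthyretin, the carrier of thyroid hormone and of retinol-binding protein in the cerebrospinal fluid, and lies at chr18:20665280-20674321 on the plus strand. It had 522, 58.8 and 1987 CPM in WT mice 1, 2 and 3, and 2049, 1439 and 63.0 CPM in Ube3a m-/p+ mice 1, 2 and 3. WT mice averaged 856 CPM ± 1007 (SD, n = 3), and Ube3a m-/p+ mice averaged 1184 CPM ± 1017 (SD, n = 3). WT mouse 3 and Ube3a m-/p+ mice 1 and 2 were thus high, WT mouse 1 was lower, and WT mouse 2 and Ube3a m-/p+ mouse 3 were at the bottom, so each genotype spanned nearly the whole range. Between the highest and the lowest library *Ttr* differed 34.9-fold (95% exact interval 31.9 to 38.1, counting error only). *Enpp2* encodes autotaxin, the enzyme that makes lysophosphatidic acid, and is also expressed by oligodendrocytes. It had 411, 227 and 1213 CPM in WT mice 1, 2 and 3, and 1287, 964 and 203 CPM in Ube3a m-/p+ mice 1, 2 and 3. The order of the libraries was nearly that of *Ttr*, with the lowest places exchanged, and the genotypes overlapped over a 6.33-fold range.

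The receptors were high and low in the same libraries. *Kl* encodes klotho, a co-receptor of fibroblast growth factor 23 that hippocampal neurons also express. Its levels in WT mice 1, 2 and 3 were 57.1, 35.2 and 114 CPM, and in Ube3a m-/p+ mice 1, 2 and 3 they were 140, 99.5 and 34.8 CPM. *Kl* was the member with the smallest range, at 4.04-fold (95% exact interval 3.59 to 4.55). *Folr1* encodes folate receptor alpha, which takes folate into the cerebrospinal fluid. In WT mice 1, 2 and 3 it had 3.53, 0.231 and 13.3 CPM, and in Ube3a m-/p+ mice 1, 2 and 3 it had 14.4, 13.0 and 0.951 CPM. The lowest of these rests on 2 counts, so its 62.6-fold range has an exact interval of 17 to 522. *Prlr*, the prolactin receptor, had 7.42, 1.84 and 21.9 CPM in WT mice 1, 2 and 3, and 22.3, 12.1 and 1.9 CPM in Ube3a m-/p+ mice 1, 2 and 3. Again the low libraries were WT mouse 2 and Ube3a m-/p+ mouse 3, and the genotypes overlapped over 12.1-fold.

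Among the genes of ion and water transport, *Aqp1* encodes the water channel of the ventricular face of the epithelium. It had 2.47, 0.346 and 15.1 CPM in WT mice 1, 2 and 3, and 10.5, 8.31 and 0.856 CPM in Ube3a m-/p+ mice 1, 2 and 3. It was the only member of the 10 that was highest in WT mouse 3, and its 43.6-fold range (95% exact interval 14.5 to 215) rests on 3 counts in WT mouse 2. *Slc4a5*, a sodium bicarbonate cotransporter, had 4.005, 0.461 and 15.5 CPM in WT mice 1, 2 and 3, and 19.4, 15.5 and 0.665 CPM in Ube3a m-/p+ mice 1, 2 and 3. *Kcne2*, an accessory subunit of potassium channels, had 3.30, 0.461 and 9.46 CPM in WT mice 1, 2 and 3, and 10.5, 10.1 and 0.856 CPM in Ube3a m-/p+ mice 1, 2 and 3. Both genes spanned the genotypes in full, over 42.1-fold and 22.7-fold, with 4 counts each in the lowest library. *Clic6*, of the chloride intracellular channel family, had 16.5, 4.38 and 33.5 CPM in WT mice 1, 2 and 3, and 36.7, 36.2 and 5.42 CPM in Ube3a m-/p+ mice 1, 2 and 3. Its range was narrower, at 8.39-fold, with 38 to 410 counts in a library.

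*Otx2* encodes the homeodomain transcription factor that the choroid plexus epithelium needs to form and to persist. It had 1.88, 1.73 and 7.27 CPM in WT mice 1, 2 and 3, and 8.68, 7.51 and 1.71 CPM in Ube3a m-/p+ mice 1, 2 and 3. In contrast to the other members, WT mouse 1 was close to the lowest libraries, with 16 counts compared with 15 in WT mouse 2 and 18 in Ube3a m-/p+ mouse 3. Exons of *Otx2* overlap those of *Otx2os1* on the opposite strand over 154 bases, and *Otx2os1* had 0 to 5 counts per library. Exons of *Enpp2* overlap those of *Gm26684* over 345 bases, and *Gm26684* had 0 to 8 counts per library. These counts are small beside those of *Otx2* and *Enpp2*.

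**Figure D1:**
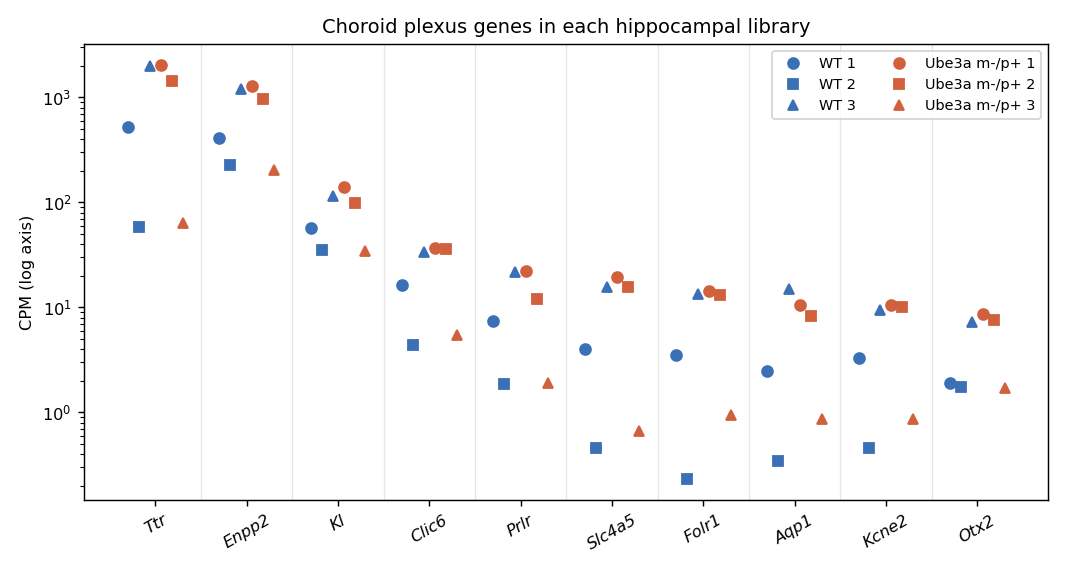
Levels of the 10 choroid plexus genes in each library, in CPM on a log axis, with blue for WT mice and orange for Ube3a m-/p+ mice and a marker shape for each mouse number. In every gene WT mouse 3 and Ube3a m-/p+ mice 1 and 2 are the 3 highest points, and WT mouse 2 and Ube3a m-/p+ mouse 3 are the lowest, as for Ttr at 58.8 and 63.0 CPM.

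To order the genes by level, CPM was divided by the length of the longest annotated transcript. The mean over the 6 libraries was 860 CPM per kb for *Ttr*, 232 for *Enpp2*, 13.8 for *Kl*, 5.89 for *Clic6*, 5.77 for *Folr1*, 3.42 for *Kcne2*, 2.38 for *Aqp1*, 1.85 for *Otx2*, 1.81 for *Slc4a5* and 1.14 for *Prlr*. *Enpp2* was above *Kl*, and *Kl* above *Clic6*, in 6 of 6 libraries. *Ttr* was above *Enpp2* in 4 of 6, the exceptions being WT mouse 2 and Ube3a m-/p+ mouse 3. *Clic6* was above *Folr1* in 3 of 6 and *Otx2* above *Slc4a5* in 2 of 6, so these neighbours did not differ beyond their spread.

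The members shared their high and their low libraries, though not the full order. WT mouse 3 and Ube3a m-/p+ mice 1 and 2 held the 3 highest levels in 10 of 10 members, WT mouse 1 came next in 10 of 10, and the lowest level was in WT mouse 2 for 7 members and in Ube3a m-/p+ mouse 3 for 3. Of all 14445 genes tested, 602 (4.17%) had their 3 highest levels in the same 3 libraries. The range between libraries was also wide. With counts under 3 set to 3, the highest level was 4.04 to 43.6 times the lowest over the members, with a median of 17.4, compared with a median of 1.42 over all genes tested. More than 20-fold was reached by 9 tested genes, of which 5 were members (*Ttr*, *Folr1*, *Aqp1*, *Slc4a5* and *Kcne2*) and 4 were on a list of other choroid plexus genes (*Tmem72*, *F5*, *Cldn2* and *Kcnj13*). More than 10-fold was reached by 18 genes, 6 of them members and 7 on the other list, and more than 5-fold by 144 genes, 9 and 19 of them on these lists. These limits were chosen after the values were seen, and both lists were chosen with earlier results of these data known.

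Whether the choroid plexus genes differed between genotypes was read from the fit over all genes, in which a call needed a fold change of over 1.2 with an adjusted p of under 0.05. None of the 10 members was called (edgeR, adjusted p 0.631 to 0.95), whereas 290 of 14445 genes were called (2.01%). No member reached an unadjusted p below 0.05 in edgeR, compared with 3560 genes (24.6%), and in no member were the genotypes free of overlap, compared with 3609 genes (25%). DESeq2 gave an adjusted p for 4 members (*Ttr*, *Enpp2*, *Kl* and *Clic6*) and called none of these, with 953 of 9567 genes called (9.96%), and it gave none for the other 6, so these could not be called. The log2 fold change was 0.49 for *Ttr* (SE 1.71, adjusted p = 0.895, edgeR) and 0.43 for *Enpp2* (SE 0.99, adjusted p = 0.835, edgeR). The receptors had 0.43 for *Kl* (SE 0.72), 0.79 for *Folr1* (SE 1.39) and 0.25 for *Prlr* (SE 1.2). The transport genes had 0.19 for *Aqp1* (SE 1.41), 0.89 for *Slc4a5* (SE 1.45), 0.75 for *Kcne2* (SE 1.25) and 0.57 for *Clic6* (SE 1.02). *Otx2*, at 0.77 (SE 0.84, adjusted p = 0.631, edgeR), had the smallest adjusted p of the members. All 10 values were above 0, with a median of 0.53 compared with 0.0025 over all genes, but each was smaller than its SE. As the members share their high and low libraries, 10 values of the same sign are not 10 separate results.

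The spread lay within the genotypes. Of the sum of squares of log2(CPM + 1), 0.84% to 12.6% lay between genotypes in the members, with a median of 4.72%, compared with a median of 32.3% over all genes tested. By exact permutation of the mice, two-sided, p was 0.5 to 0.9 for the members, where the smallest p that 3 against 3 mice can give is 0.1. The summed level of the 10 genes was 1029, 330 and 3430 CPM in WT mice 1, 2 and 3, and 3599, 2606 and 314 CPM in Ube3a m-/p+ mice 1, 2 and 3. The sum was 1.36 times as high in Ube3a m-/p+ mice as in WT mice, or 0.44 on the log2 scale, with a pooled SD of 1.80 on the same scale. At this spread a difference of the size measured could not be detected.

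With 3 mice per genotype, single mice set the fold changes. Leaving out WT mouse 3 gave the highest log2 fold change in every member, up to 2.4 for *Slc4a5* and 2.03 for *Ttr*. Without Ube3a m-/p+ mouse 1 the log2 fold change was -0.16 for *Ttr*, -0.05 for *Enpp2*, -0.50 for *Prlr* and -0.28 for *Aqp1*, and without WT mouse 2 it was -0.07 for *Ttr*, -0.26 for *Prlr* and -0.39 for *Aqp1*. *Aqp1* was also below 0 without WT mouse 1 (-0.18) and without Ube3a m-/p+ mouse 2 (-0.04). No member was called with any mouse left out (adjusted p 0.312 to 0.997, edgeR). Without WT mouse 3, 1 member had an unadjusted p below 0.05 (edgeR), compared with 2159 of all genes.

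**Figure D2:**
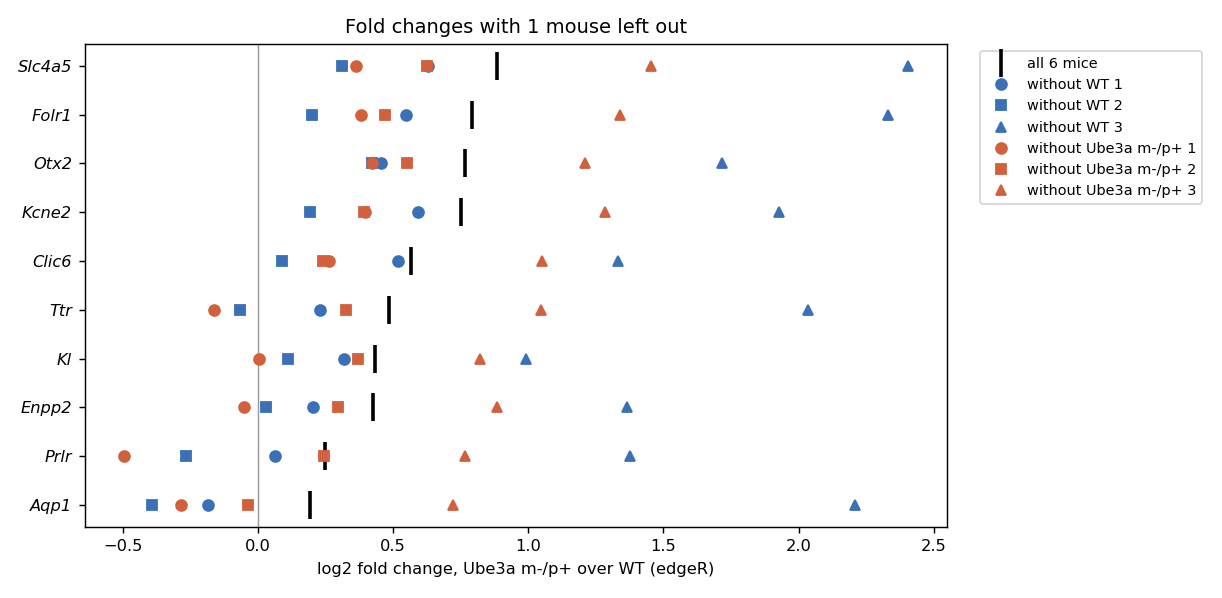
Log2 fold change of each member, Ube3a m-/p+ over WT, with all 6 mice (black bars) and with each mouse left out in turn (coloured markers). The values without WT mouse 3 lie farthest to the right in all 10 genes, as at 2.03 for Ttr, and 4 genes have a value below 0 without Ube3a m-/p+ mouse 1.

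The members differed in the level they kept where *Ttr* was low. In CPM, their Pearson r with *Ttr* over the 6 libraries ranged from 0.961 for *Aqp1* to 0.999 for *Enpp2*. In CPM over the 6 libraries, a straight line of *Slc4a5*, *Aqp1* and *Folr1* on *Ttr* met zero *Ttr* at 0.06, -0.08 and 0.32 CPM, which is near 0. The line of *Kl* met it at 32.0 CPM, close to the 35.2 and 34.8 CPM measured in the 2 lowest libraries. That of *Enpp2* met it at 170 CPM, that of *Clic6* at 5.89 CPM, that of *Otx2* at 1.24 CPM, that of *Prlr* at 1.2 CPM and that of *Kcne2* at 0.68 CPM. *Folr1*, *Clic6* and *Kcne2* were below their intercepts in WT mouse 2 (0.231, 4.38 and 0.461 CPM), and *Clic6* also in Ube3a m-/p+ mouse 3 (5.42 CPM). Over the libraries the ratio to *Ttr* varied 10.4-fold for *Kl*, 8.14-fold for *Otx2*, 6.33-fold for *Enpp2* and 5.11-fold for *Clic6*, compared with 1.4-fold for *Slc4a5*. As the points are 6 libraries that share their total count, the lines are a description. *Slc4a5* kept the steadiest ratio, which for WT mice 1, 2 and 3 was 7.68, 7.84 and 7.80 counts per 1000 *Ttr* counts. For Ube3a m-/p+ mice 1, 2 and 3 the ratio was 9.46, 10.7 and 10.6. Over the same libraries *Enpp2* ranged from 610 to 3861 counts per 1000 *Ttr* counts. The *Slc4a5* ratios did not overlap between genotypes, but they rest on 4 counts in WT mouse 2 and 7 in Ube3a m-/p+ mouse 3, and the exact intervals of WT mouse 3 (6.42 to 9.38) and Ube3a m-/p+ mouse 1 (8.10 to 11) overlapped. The *Folr1* ratios also did not overlap, with 6.77, 3.92 and 6.69 counts per 1000 *Ttr* counts for WT mice 1, 2 and 3. For Ube3a m-/p+ mice 1, 2 and 3 they were 7.04, 9.03 and 15.1, the last on 10 counts. The ratios of the other members overlapped between genotypes, and the share over all genes is not given here. With the *Ttr* level in the fit neither *Slc4a5* nor *Folr1* was called.

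**Figure D3:**
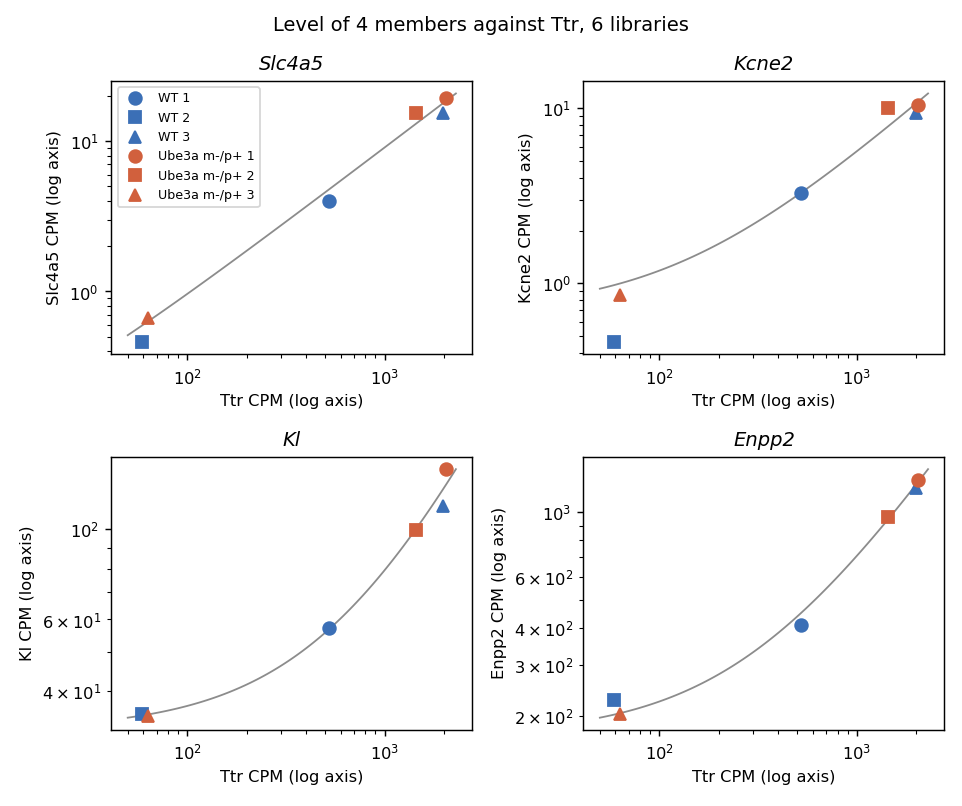
Level of Slc4a5, Kcne2, Kl and Enpp2 against that of Ttr in each library, in CPM on log axes, with the straight line fitted in CPM in grey. Slc4a5 falls with Ttr to below 1 CPM, whereas Kl is at 35.2 and 34.8 CPM and Enpp2 at 227 and 203 CPM in the libraries with the least Ttr.

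A fit with the *Ttr* level of each library as a covariate, added after the data were seen, narrowed the errors of the members. Over the 9 remaining members the median SE was 1.2 on genotype alone and 0.21 with the covariate, compared with 0.130 and 0.133 over all genes. None of the 9 was called (adjusted p 0.235 to 0.850, edgeR), whereas 310 genes were called (2.15%), of which 256 were among the 290. The log2 fold change was 0.41 for *Slc4a5* (SE 0.21, adjusted p = 0.235, edgeR), 0.42 for *Folr1* (SE 0.24), 0.50 for *Otx2* (SE 0.29) and 0.36 for *Kcne2* (SE 0.25). It was 0.20 for *Kl* (SE 0.12), 0.24 for *Clic6* (SE 0.14) and 0.12 for *Enpp2* (SE 0.15). *Aqp1* and *Prlr* changed sign, to -0.10 (SE 0.28) and -0.12 (SE 0.20). *Ttr* is itself a member, so this fit compares the others at an equal *Ttr* level and not the choroid plexus content of the tissue.

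**Figure D4:**
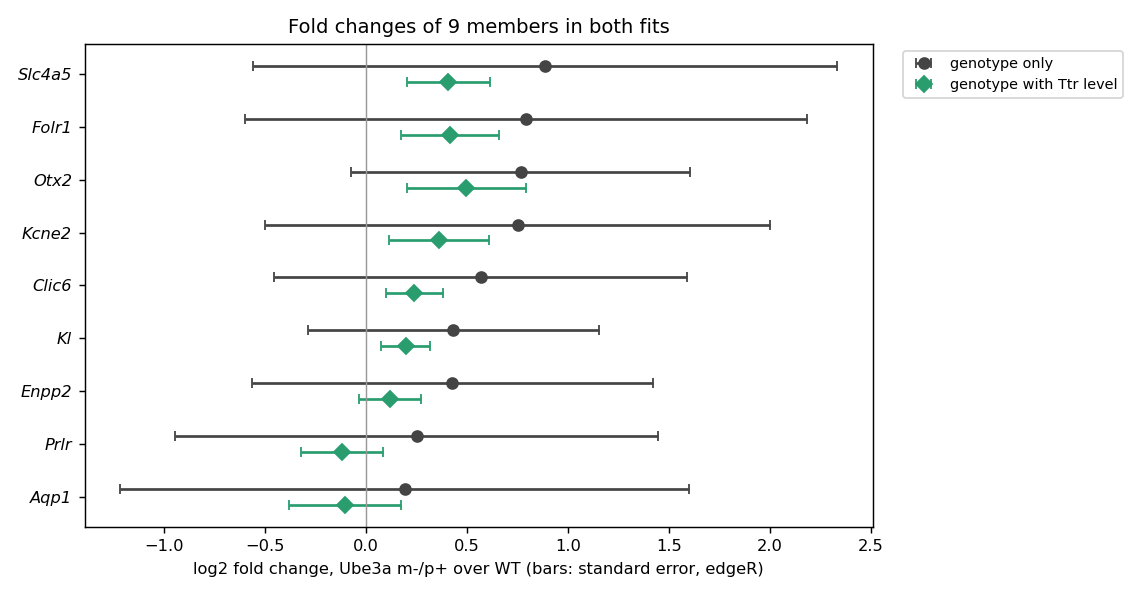
Log2 fold change of 9 members, Ube3a m-/p+ over WT, with bars of 1 SE, from the fit on genotype alone (grey circles) and from the fit with the Ttr level of each library (green diamonds). The bars shrink from a median of 1.2 to 0.21, and Aqp1 and Prlr move to the left of 0.

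A second list of 32 choroid plexus genes, of which 31 were in the tables and 30 passed the filter on low counts, was read in the same way. With all 6 mice none of the 30 was called and none had an unadjusted p below 0.05 in edgeR. DESeq2 called none of the 6 for which it gave an adjusted p. Without WT mouse 3, 9 genes of this list had an unadjusted p below 0.05 (edgeR), compared with 2159 of all genes. Without Ube3a m-/p+ mouse 3 it was 8, compared with 2429 of all genes. Set against the 30 and 14445 genes tested with all 6 mice, the share was higher in the list in both fits. As the genes of this list share their high and low libraries, they are not separate results. With a mouse left out, none of the list was called. The median log2 fold change was 0.50, and 29 of 30 values were above 0. In 29 of 30 the 3 highest libraries were WT mouse 3 and Ube3a m-/p+ mice 1 and 2. The median range between libraries was 7.10-fold, which lay between that of the members and that of all genes. The range differed among the genes with the highest level. The potassium channel *Kcnj13* varied 46.5-fold, the coagulation factor *F5* 23.4-fold and the secreted peptide gene *Ecrg4* 16-fold. The sulfatase *Sulf1*, the sulfate transporter *Slc13a4* and *Ace*, the angiotensin-converting enzyme, varied 8.14-fold, 5.60-fold and 5.14-fold. *Igfbp2* (3.60-fold), *Msx1* (3.32-fold), *Lbp* (3.03-fold), *Igf2* (2.46-fold) and the carbonic anhydrase *Car12* (1.88-fold) varied less. *Car12* had 31.3 to 58.7 CPM and *Igf2* 44.2 to 109 CPM, so these held more of their level in the libraries low in *Ttr*. *Mfrp* was listed at 0 in all libraries, and whether its reads were left unassigned was not tested. With the *Ttr* level in the fit, *Col8a2*, a short-chain collagen, was called at a log2 fold change of 1.31 (SE 0.24, adjusted p = 0.0331, edgeR) and the growth factor binding protein *Igfbp2* at 0.54 (SE 0.12, adjusted p = 0.0350, edgeR). They were 2 of the 30 genes, compared with 2.15% of all genes. Without the covariate their values were 1.57 (SE 0.75, adjusted p = 0.276, edgeR) and 0.70 (SE 0.51, adjusted p = 0.469, edgeR).

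The tested genes outside the 10 whose log2(CPM + 1) was most like that of *Ttr* over the 6 libraries were *Kcnj13* (Pearson r = 0.995), *Drc7* (0.993), *F5* (0.992), *Gm16090* (0.989), *Myo5c* (0.988) and *Sostdc1* (0.988). *Kcnj13*, *F5* and *Sostdc1* were on the second choroid plexus list, and *Drc7* encodes a part of the dynein regulatory complex of motile cilia. Over the members r was 0.894 for *Otx2* to 0.994 for *Clic6*. Of 14444 genes, 46 had r above 0.95, of which 8 were members and 9 were on the second list. The points are 6 libraries and the genes were ranked on the same values, so no p is given. *Drc7* had 7.30, 4.27 and 11.8 CPM in WT mice 1, 2 and 3, and 12.6, 10.3 and 4.37 CPM in Ube3a m-/p+ mice 1, 2 and 3, a narrower range than that of *Ttr*. *Gm16090* had 5 to 16 counts and *Myo5c* 8 to 33 counts in a library, so their likeness rests on few reads.

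Summed markers of neighbouring tissue varied less between libraries than the summed members, although single ependymal and meningeal genes varied up to 4.6-fold and 4.88-fold, more than *Kl*. The summed level of 15 genes of the ependyma, the ciliated lining of the ventricles, was 125 to 142 CPM in WT mice and 151 to 172 CPM in Ube3a m-/p+ mice. In WT mouse 3, high in *Ttr*, it was 125 CPM, and in WT mouse 2, low in *Ttr*, it was 128 CPM, whereas Ube3a m-/p+ mice 1 and 2, high in *Ttr*, had 156 and 172 CPM and Ube3a m-/p+ mouse 3, low in *Ttr*, had 151 CPM. The gene with the highest level, *Pltp*, made up most of this sum, with 83.0 CPM in WT mouse 2 and 75.6 CPM in WT mouse 3. Between these mice *Pltp* differed by more than the sum did, so the remaining ependymal genes together were higher in WT mouse 3. Unlike the choroid plexus sums, the ependymal sums did not overlap between genotypes. The oligodendrocyte, astrocyte, endothelial and striatal sums did not overlap either, and of all genes tested 25% were free of overlap. Of the 14 tested ependymal genes 1 was called, compared with 2.01% of all genes. It was *Foxj1*, the regulator of motile cilia, which rose by 1.01 on the log2 scale (SE 0.17, adjusted p = 0.0361, edgeR). Its call held without WT mouse 1 or Ube3a m-/p+ mouse 1 and was lost without any of the other 4 mice (adjusted p up to 0.251, edgeR). *Pltp* and *Rarres2*, the ependymal genes with the highest level, had log2 fold changes of 0.15 (adjusted p = 0.360, edgeR) and 0.33 (adjusted p = 0.172, edgeR).

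The 16 meningeal genes summed to 72.7 to 87.2 CPM in WT mice and 78.1 to 134 CPM in Ube3a m-/p+ mice. *Col1a1*, a fibrillar collagen, rose by 0.73 on the log2 scale (SE 0.17, adjusted p = 0.0416, edgeR), and *Col1a2* had 0.55 (adjusted p = 0.0838, edgeR). The call of *Col1a1* was lost without WT mouse 2, WT mouse 3, Ube3a m-/p+ mouse 2 or Ube3a m-/p+ mouse 3 (adjusted p up to 0.272, edgeR) and with the GC and length correction (0.55, adjusted p = 0.0750, edgeR). The highest meningeal sum was in Ube3a m-/p+ mouse 2, where *Ttr* was lower than in WT mouse 3, and the lowest were in WT mouse 2 and Ube3a m-/p+ mouse 3, as for the members. The meningeal sums varied 1.84-fold between libraries, compared with 11.5-fold for the summed members, and their part in the members' levels was not tested. Oligodendrocyte genes, which bear on *Enpp2*, summed to 8826 to 8995 CPM in WT mice and 7400 to 8445 CPM in Ube3a m-/p+ mice, and none of the 12 was called, with *Mbp* at 0.02 (adjusted p = 0.90, edgeR). Their sum varied 1.22-fold between libraries, over which *Enpp2* varied 6.33-fold.

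Of the tissue markers, the 12 hippocampal genes summed to 1735 to 1822 CPM in WT mice and 1733 to 1901 CPM in Ube3a m-/p+ mice, and none was called, with *Cpne6* at 0.24 and *Neurod6* at -0.10 (adjusted p = 0.0977 and 0.575, edgeR). None of the 10 astrocyte genes was called (*Slc1a2* -0.32, *Aldoc* 0.21), and neither was any of the 10 endothelial and pericyte genes (*Flt1* -0.16, *Slco1a4* -0.41). The astrocyte sum was 5380 to 5796 CPM in WT mice and 4830 to 5045 CPM in Ube3a m-/p+ mice, and the endothelial sum 395 to 413 CPM and 365 to 379 CPM. Within each genotype the endothelial sum was lowest in the mouse lowest in *Ttr*, with 395 CPM in WT mouse 2 and 365 CPM in Ube3a m-/p+ mouse 3. These sums varied 1.13-fold between the 6 libraries, and their part in the members' levels was not tested. Of the 7 tested genes of thalamus and habenula, *Rora* fell by 0.62 (adjusted p = 0.0387, edgeR), whereas *Prkcd* and *Nwd2* had 0.38 and -0.09 and were not called. Of the 6 tested striatal genes, *Ppp1r1b* rose by 0.47 (adjusted p = 0.0486, edgeR), and *Rgs9* had 0.35 (adjusted p = 0.178, edgeR). Both calls were lost without WT mouse 2, WT mouse 3, Ube3a m-/p+ mouse 2 or Ube3a m-/p+ mouse 3 (adjusted p 0.142 to 0.273, edgeR). Corrected for GC content and length, *Rora* had -0.34 and *Ppp1r1b* 0.18 (adjusted p = 0.165 and 0.392, edgeR), and with library sizes alone *Ppp1r1b* had an adjusted p of 0.0548 (edgeR). The red-cell genes *Hba-a1*, *Hba-a2*, *Hbb-bs* and *Hbb-bt* were listed at 0 in all libraries, and *Alas2* had 3.18 to 6.69 CPM. Whether reads of the genes at 0 were left unassigned was not tested, so these values do not show that blood was absent.

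**Figure D5:**
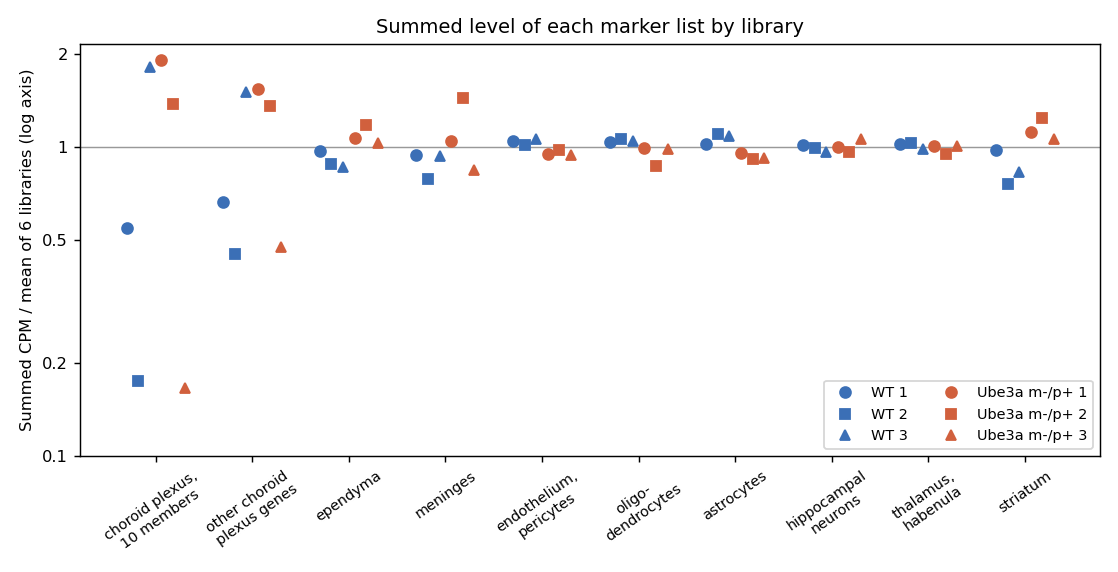
Summed CPM of each marker list in each library, divided by the mean over the 6 libraries, on a log axis, with blue for WT mice and orange for Ube3a m-/p+ mice. The 10 members span from 314 to 3599 CPM, whereas the hippocampal genes stay between 1733 and 1901 CPM.

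The part of depth in the members' levels was not tested, and every WT library had fewer gene counts than every Ube3a m-/p+ library. WT mouse 3, high in *Ttr*, had the fewest gene counts (7293272) and Ube3a m-/p+ mouse 2, also high, had the most (11314409), and the libraries low in *Ttr* had 8675252 and 10520497. The summed members made up 0.0314% to 0.360% of the gene counts of a library.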

How the data were processed

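RNA was sequenced from the hippocampus of 3 WT and 3 Ube3a m-/p+ mice, and the replicates are separate mice. The authors deposited counts, whole numbers of reads per gene symbol for each library, without normalization or pooling. The submitters' processing notes name STAR (2.7.4a), HTSeq and the build mm10; the annotation and strand setting are not given in the sources used here. The 5 summary lines that name no gene were left out. Strand and multiple alignment can move counts between overlapping genes.

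In R 4.3.3, filterByExpr kept 14445 genes, library sizes were scaled by TMM, and genotype alone was fitted with edgeR (4.0.16), whose two-sided quasi-likelihood test (robust) was adjusted after Benjamini-Hochberg over all genes kept; the biological coefficient of variation was 0.102. CPM used total gene counts. A floor of 3 counts was used for ranges, and intervals are exact (95%). The fit was tested on simulated data. Alternatives were other scaling, DESeq2 (1.42.0), other filters and thresholds, each mouse left out, the replicate number as a block, a GC and length correction (splines with 5 degrees of freedom each, 98.3% of the genes tested) and the *Ttr* level as a covariate.

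The members and lists were chosen with earlier results of these data known. Genes are named by a rule covering *Ube3a*, the 10 members, the 12 other choroid plexus genes with the highest level, 2 genes of each other list, genes called or at 0 in a list, and the 6 genes most like *Ttr*. *Tmem72* and *Cldn2*, and the overlapping genes, were named after their values were seen. A few genes that the rule covers are not reported here.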

Additional observations from a re-analysis of the deposited data

How the results depend on the processing

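No member was called under any alternative that could call it. DESeq2 gave no adjusted p for *Folr1*, *Aqp1*, *Kcne2*, *Otx2*, *Slc4a5* and *Prlr*. Of 155 refits of single members, 144 kept their direction, 11 reversed (9 with a mouse left out, and *Aqp1* at -0.10 and *Prlr* at -0.12 with the *Ttr* level as covariate, a fit chosen after seeing the data), and none of the 149 with an adjusted p crossed the threshold (adjusted p 0.235 to 0.997, edgeR or DESeq2). With each mouse left out, the log2 fold change ranged from -0.16 to 2.03 for *Ttr*, 0.0064 to 0.99 for *Kl*, 0.20 to 2.33 for *Folr1*, 0.09 to 1.33 for *Clic6*, -0.39 to 2.21 for *Aqp1*, 0.19 to 1.93 for *Kcne2*, 0.42 to 1.72 for *Otx2*, 0.31 to 2.4 for *Slc4a5*, -0.0498 to 1.37 for *Enpp2* and -0.50 to 1.38 for *Prlr*, and that of the summed level from -0.13 to 1.68. Requiring 10 or more counts in each library left out *Folr1*, *Aqp1*, *Kcne2* and *Slc4a5*.

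The 290 genes called became 953 by DESeq2, 1176 without a filter, 92 with the GC and length correction, 13 with that correction and the replicate block, and 2832 at an unadjusted p with the fold threshold. With each mouse left out the count ranged from 0 to 2582: it was 2582 without WT mouse 1, 1816 without Ube3a m-/p+ mouse 1, 2 without Ube3a m-/p+ mouse 3, and 0 without WT mouse 2, WT mouse 3 or Ube3a m-/p+ mouse 2, where 2075, 2159 and 2128 genes had an unadjusted p below 0.05 in edgeR. The causes were not tested. Under the replicate block 0 genes were called (edgeR, 2422 at an unadjusted p below 0.05), and *Ttr* had a log2 fold change of 1.42. Same-numbered mice did not deviate together from their group means (r = -0.285, -0.177 and -0.311 over 14445 genes). The labels give these mice a common number and nothing more, and a shared litter or batch was not tested. Of the other choroid plexus genes, 2 were called with the *Ttr* level as covariate and 0 under the other alternatives, where DESeq2 could call 6 of 30. Depth limits *Folr1*, *Aqp1*, *Slc4a5* and *Kcne2*, with 2 to 4 counts in WT mouse 2.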
